A study of Mus musculus with 12 samples.

Results

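T lymphocytes and natural killer (NK) cells were followed in the mouse kidney through 38 genes: subunits of the T cell receptor complex and its coreceptors, signalling proteins, accessory and costimulatory surface proteins, cytokine receptor chains, transcription factors, cytotoxic granule genes, secreted cytokines and NK receptors. The members were found by gene name among the printed probes of the array, and each gene takes its value from its brightest probe. The array carries 64 probes for them. A gene entered the tests when 3 or more of the 12 arrays read a probe of it well above background, as was the case for 36 of the 38 members among 25947 genes tested in all. The exceptions were Ctla4, an inhibitory receptor of T cells, which was well above background on 0 arrays, and Ncr1, an activating NK receptor, which was so on 1 array.

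Expression was measured in kidneys of male mice in 4 groups of 3. The groups are Jaml knockout mice 24 h after ischemia-reperfusion injury (KO IRI), Jaml knockout mice after a sham operation (KO sham), wild-type mice 24 h after the same injury (WT IRI) and wild-type mice after a sham operation (WT sham). The knockout was made on a C57/6J background, per the series text. The product of Jaml is an adhesion protein of leukocytes. The injury consists of closing the vessels of the kidneys for a time and opening them again. The closure took 40 min under pentobarbital sodium by the series text and 30 min by the protocol text. Which of these was used, the age of the animals, and whether Jaml was deleted in all cells are not given in the sources used here.

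T cells recognise peptides through a receptor whose signal leaves the membrane by the CD3 chains and is passed on by the kinases LCK and ZAP70 and the adaptor LAT. Cytotoxic T cells, which carry CD8, and NK cells kill target cells by releasing granzymes and perforin, and both secrete interferon gamma. The healthy kidney holds few such cells, and they can enter it after injury.

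Levels are log2 probe signals relative to the 75th percentile of their array, and they are compared between arrays only, never between probes. All 6 KO arrays lie on 1 slide and all 6 WT arrays on another, so that slide and genotype cannot be told apart, while IRI and sham were compared within a slide. Between 62.9% and 68.1% of probes were well above background per array. The targeted gene itself read -1.89, -2.70 and -3.0 in KO IRI, -3.54, -2.59 and -3.18 in KO sham, 0.55, -1.80 and -1.64 in WT IRI and -0.26, -0.26 and -0.44 in WT sham kidneys. Its KO sham levels lay below its WT sham levels, with a log2 fold change of -2.79 ± 0.56, limma adjusted p = 0.0152. Its KO IRI levels also lay below its WT IRI levels, a difference that did not pass (-1.57 ± 0.56, limma adjusted p = 0.153). The Jaml probe was well above background on all 6 KO arrays, and the labels do not say which stretch of Jaml was deleted, so that its level does not settle the genotypes. Of the kidney's own genes, Slc34a1, a phosphate carrier of the proximal tubule, was well above background on all 12 arrays.

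The wild-type sham kidneys differed among themselves in the T and NK cell genes. Replicates 1 and 2 were alike and high, and replicate 3 was the lowest of the 3 arrays for 33 of the 36 tested members. The distance between the highest and the lowest WT sham array exceeded 2 on the log2 scale for 21 of 36 members (58.3%), against 2.07% of all genes tested. In KO IRI, KO sham and WT IRI kidneys it did so for 0, 2 and 1 members. WT sham replicate 1 was above all 9 arrays of the other groups for 32 members, replicate 2 for 33 and replicate 3 for 14. The KO sham group had a smaller difference of the same kind, with replicate 2 highest for 33 of 36 members. WT sham replicates 1 and 2 also lay close to each other over 9978 brightly measured genes, where the SD of their difference was 0.130, and so did KO sham replicates 1 and 3 (0.121), while the other pairs within groups lay between 0.228 and 0.648. Both pairs were kept as separate samples, and the counts with each pair averaged into 1 sample are given beside the results.

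**Figure D1:**
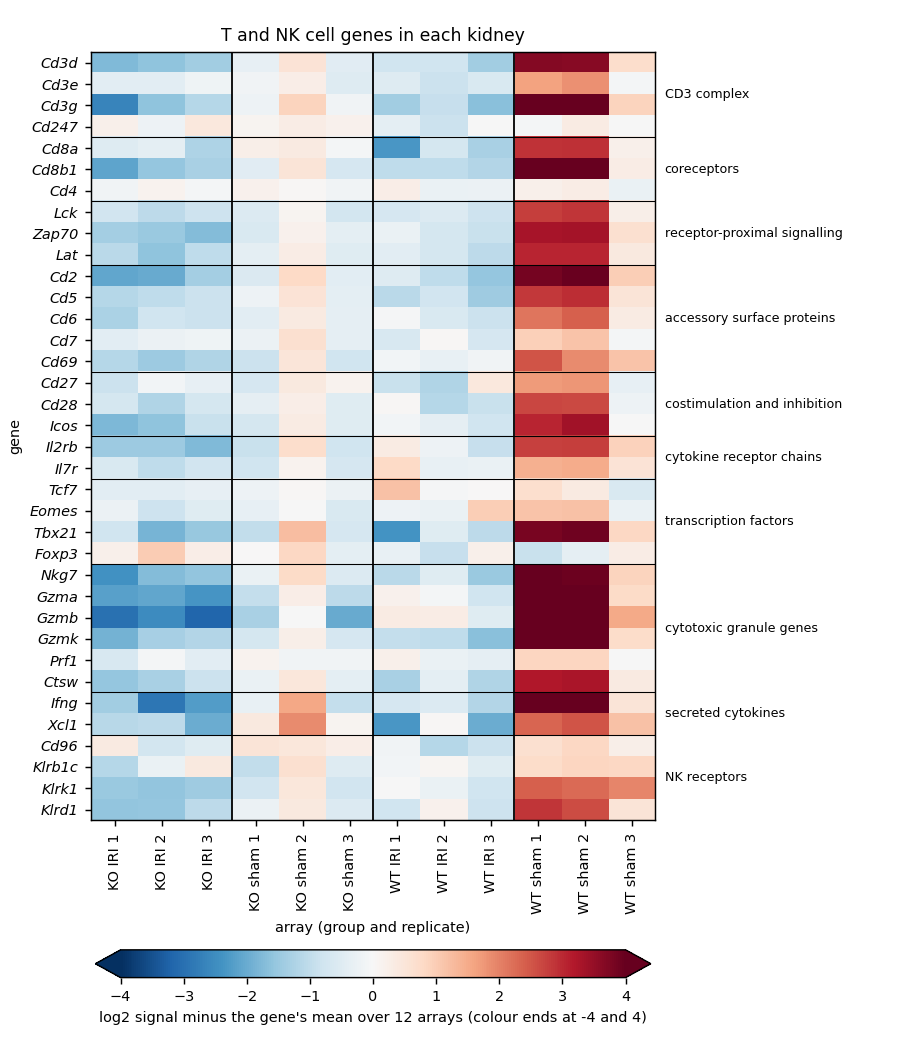
Colour map of the 36 tested T and NK cell genes (rows, grouped by role) on the 12 arrays (columns, by group and replicate). Colour is the log2 signal minus the gene's mean over the 12 arrays. WT sham replicates 1 and 2 are high for most genes, WT sham replicate 3 is nearer to the other 9 arrays, and the rows of Cd4, Cd247 and Foxp3 show no such contrast.

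Most of the T and NK members fell in WT IRI relative to WT sham kidneys. Of the 36 members, 26 fell and 0 rose (limma, Benjamini-Hochberg adjusted p under 0.05 over all genes tested), where 5.90% of all genes tested fell and 12.0% passed in either direction. The median log2 fold change of the members was -2.56, against -0.01 over all genes, and 35 of 36 were negative. All WT IRI arrays lay below all WT sham arrays for 26 members, as for 15.1% of all genes. In these whole-kidney samples fewer cells of a type and less RNA per cell cannot be told apart. The count was 8, 7 and 10 without WT sham replicate 1, WT sham replicate 2 or WT IRI replicate 3, and it was 1 in a fit to the 6 WT arrays alone and 1 with the closest arrays averaged, while the median log2 fold change lay between -2.56 and -2.17 in these fits. Of all genes 3.32%, 3.26%, 4.64%, 1.61% and 1.06% passed in these fits, in that order.

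Without injury, part of the members were lower in KO than in WT kidneys. Between KO sham and WT sham, 17 members were lower and 0 higher, where 3.73% of all genes tested were lower and 8.85% passed in either direction. The median log2 fold change was -2.19, against 0.12 over all genes, and 34 of 36 members were negative. All KO sham arrays lay below all WT sham arrays for 15 members, as for 12.2% of all genes. Both comparisons use the same 3 WT sham kidneys, and 16 genes were called in both, which is 61.5% of the first list and 94.1% of the second. Leaving out replicate 1 or 2 of WT sham or replicate 1 or 3 of KO sham gave a count of 3 each time. The count was 27 without WT sham replicate 3 and 11 without KO IRI replicate 2 or 3 or with no filter on dim probes, and 0 with the closest arrays averaged.

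Within the knockout, IRI gave 0 calls in either direction among the 36 members, where 6.16% of all genes passed. At an unadjusted p under 0.05 limma counted 9 members, as it did 5457 of the 25947 genes. The median log2 fold change was -1.01, against -0.08 over all genes. All KO IRI arrays lay below all KO sham arrays for 24 members, as for 21.8% of all genes. The smallest adjusted p among the members was that of Klrk1, an activating receptor of NK and CD8 T cells (-1.13 ± 0.32, limma adjusted p = 0.0674). The count was 10 without WT sham replicate 3, an array outside this comparison that enters the shared estimate of the spread, and 1 without WT IRI replicate 1 or 2. Of all genes 6.18%, 12.5% and 7.12% passed in these fits, in that order.

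The injured kidneys of both genotypes were compared next. KO IRI against WT IRI gave 0 calls by limma, where 1.93% of all genes passed, and 7 members had an unadjusted p under 0.05, as did 5625 of the 25947 genes. The median log2 fold change was -0.46, with 26 of 36 negative, and all KO IRI arrays lay below all WT IRI arrays for 13 members, as for 9.45% of all genes. Klrk1 again had the smallest adjusted p (-1.13 ± 0.32, limma adjusted p = 0.0981). For the difference between the IRI responses, KO minus WT, limma gave 0 calls, where 0.0694% of all genes passed. In that contrast 8 members had an unadjusted p under 0.05, as did 2536 of the 25947 genes, and its median was 1.42 with 35 of 36 members positive. Klrk1 was at 1.42 ± 0.45, limma adjusted p = 0.371. All 5 contrasts use arrays of the same 4 groups, so their members' values are not independent of each other. The interaction count was 9 without WT sham replicate 3, where 0.227% of all genes passed.

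**Figure D2:**
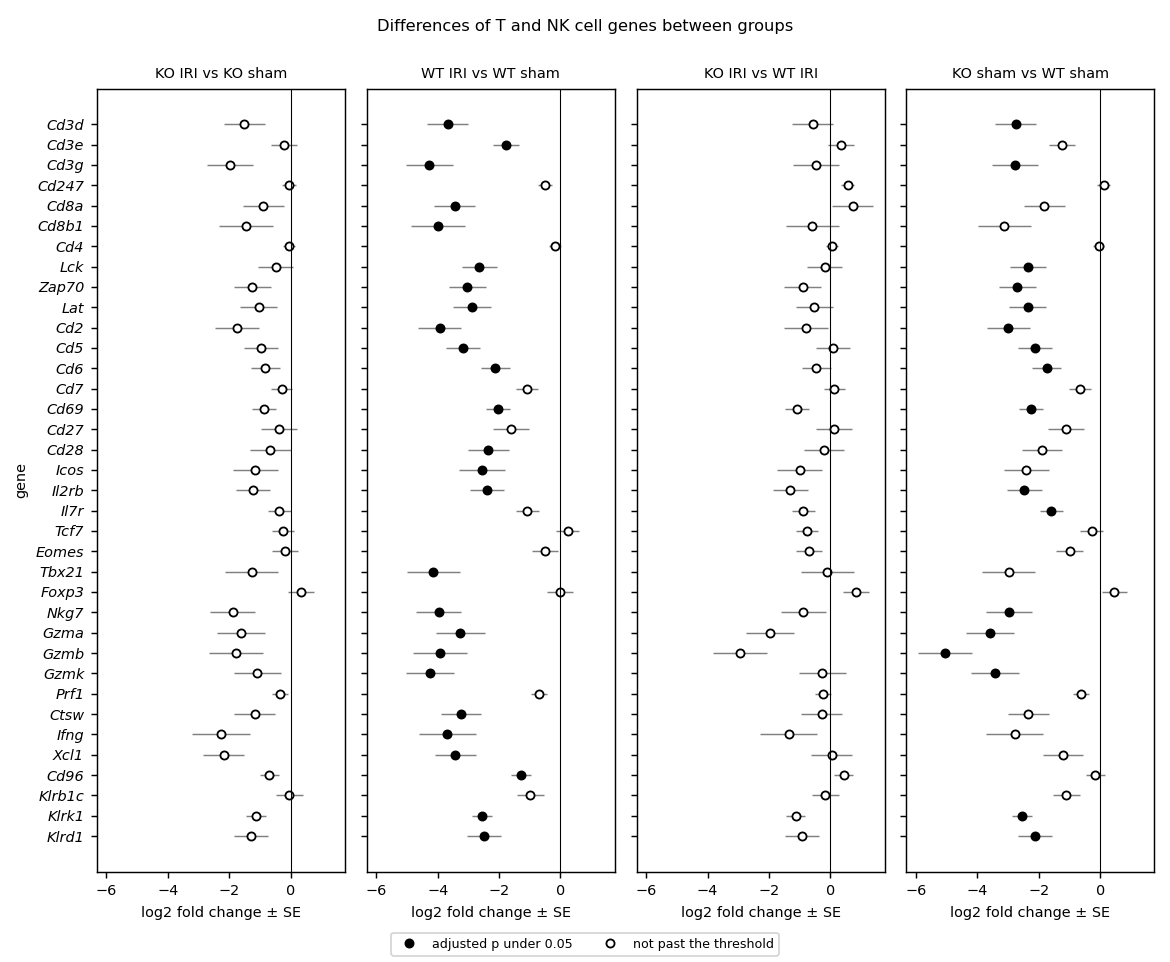
Log2 fold changes with standard errors from limma for the 36 tested T and NK cell genes in 4 comparisons, with the groups in each panel's title as numerator and denominator. Filled points passed an adjusted p under 0.05. The panel of WT IRI over WT sham has 26 filled points, that of KO sham over WT sham has 17 and the other panels have 0, and 35 of 36 points lie left of 0 for IRI against sham in either genotype.

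Among the chains of the CD3 complex, which carry the T cell receptor's signal, 3 of 4 fell after IRI in wild-type kidneys, and 2 were lower in KO sham than in WT sham kidneys. Cd3d read -3.35, -3.19 and -2.97 in KO IRI, -1.92, -1.02 and -2.04 in KO sham, -2.39, -2.39 and -2.99 in WT IRI and 2.10, 2.05 and -0.89 in WT sham kidneys. Every WT IRI and KO sham array lay below the lowest WT sham array. The gene was 12.8-fold lower in WT IRI than in WT sham kidneys, with a log2 fold change of -3.68 ± 0.67, limma adjusted p = 0.0107, SE with n = 3 per group as in all that follow, and of -2.75 ± 0.67, limma adjusted p = 0.0335 for KO sham against WT sham. Its second probe joins sequences that lie apart in the genome, since its 60 bases span 232 bases of chromosome 9 (mm9, chr9:44794171-44794402, plus strand), and it fell by 4.08 in WT IRI against WT sham. It is shown because a probe over such a junction reads spliced message.
Cd3d probe: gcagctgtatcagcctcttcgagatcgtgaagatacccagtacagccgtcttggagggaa

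Cd3g read -6.53, -5.49 and -5.02 in KO IRI, -4.10, -3.0 and -4.04 in KO sham, -5.28, -4.81 and -5.57 in WT IRI and 0.09, 0.08 and -3.01 in WT sham kidneys. It was 19.4-fold lower in WT IRI than in WT sham kidneys (-4.27 ± 0.76, limma adjusted p = 0.00960), and KO sham replicate 2 overlapped the lowest WT sham array (-2.77 ± 0.76, limma adjusted p = 0.0489 for KO sham against WT sham). Cd3e read -1.31, -1.32 and -1.07 in KO IRI, -1.05, -0.63 and -1.42 in KO sham, -1.42, -1.75 and -1.53 in WT IRI and 0.71, 0.93 and -1.0 in WT sham kidneys. Its WT IRI arrays lay below all WT sham arrays (-1.78 ± 0.42, limma adjusted p = 0.0254), and the difference between KO sham and WT sham was -1.25 ± 0.42, limma adjusted p = 0.0990. The genes of these 3 chains are neighbours of the targeted gene: on chromosome 9 their probes lie 137.6 kb (Cd3g), 121 kb (Cd3d) and 108.6 kb (Cd3e) from the probe of Jaml. Whether that position bears on the differences between the genotypes was not tested.

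The CD8 coreceptor, which marks cytotoxic T cells, fell with both of its chains after IRI in wild-type kidneys. Cd8a read -4.07, -3.91 and -4.78 in KO IRI, -3.31, -3.18 and -3.62 in KO sham, -5.88, -4.26 and -4.83 in WT IRI and -0.66, -0.63 and -3.34 in WT sham kidneys. Cd8b1 read -3.98, -3.42 and -3.18 in KO IRI, -2.32, -1.38 and -2.54 in KO sham, -2.89, -2.90 and -3.04 in WT IRI and 2.37, 2.35 and -1.59 in WT sham kidneys. Both genes were far higher in WT sham replicates 1 and 2 than on any other array, and WT sham replicate 3 overlapped the KO sham arrays. The log2 fold change of WT IRI against WT sham was -3.44 ± 0.67, limma adjusted p = 0.0129 for Cd8a. It was -3.99 ± 0.87, limma adjusted p = 0.0190 for Cd8b1, a 15.9-fold lower level. Between KO sham and WT sham it was -1.83 ± 0.67, limma adjusted p = 0.121 for Cd8a and -3.12 ± 0.87, limma adjusted p = 0.0528 for Cd8b1, neither past the threshold.

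The 3 genes of receptor-proximal signalling were lower in both comparisons with WT sham kidneys. Lck, the kinase that starts the signal, read -1.55, -1.81 and -1.61 in KO IRI, -1.33, -0.66 and -1.53 in KO sham, -1.46, -1.33 and -1.61 in WT IRI and 2.0, 2.08 and -0.53 in WT sham kidneys. Zap70, the kinase that binds the CD3 chains, read -4.03, -4.15 and -4.40 in KO IRI, -3.27, -2.49 and -3.07 in KO sham, -2.93, -3.36 and -3.57 in WT IRI and 0.63, 0.66 and -2.04 in WT sham kidneys. Lat, the adaptor that ZAP70 phosphorylates, read -4.74, -5.26 and -4.67 in KO IRI, -4.05, -3.36 and -4.13 in KO sham, -4.06, -4.36 and -4.68 in WT IRI and -0.59, -0.60 and -3.27 in WT sham kidneys. For each of them every WT IRI and KO sham array lay below the lowest WT sham array. Lck had log2 fold changes of -2.65 ± 0.57, limma adjusted p = 0.0183 in WT IRI and -2.35 ± 0.57, limma adjusted p = 0.0329 in KO sham kidneys, each against WT sham. Zap70 had -3.04 ± 0.60, limma adjusted p = 0.0140 and -2.70 ± 0.60, limma adjusted p = 0.0243 in the same order, and Lat had -2.88 ± 0.61, limma adjusted p = 0.0170 and -2.36 ± 0.61, limma adjusted p = 0.0406. The single probe for Lat is shown because it alone carries that gene's result (mm9, chr7:133507719-133507778, minus strand).
Lat probe: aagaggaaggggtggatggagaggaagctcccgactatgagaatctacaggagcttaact

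Among the accessory surface proteins, 4 of 5 fell after IRI in wild-type kidneys and the same 4 were lower in KO sham kidneys. Cd2, an adhesion receptor of T and NK cells, read -4.96, -4.88 and -4.22 in KO IRI, -3.45, -2.08 and -3.30 in KO sham, -3.38, -3.88 and -4.42 in WT IRI and 0.96, 1.08 and -1.90 in WT sham kidneys. Cd5, which restrains receptor signalling, read -4.01, -3.89 and -3.73 in KO IRI, -3.10, -2.34 and -3.27 in KO sham, -3.95, -3.65 and -4.30 in WT IRI and -0.06, 0.06 and -2.37 in WT sham kidneys. Cd6, its close relative, read -3.53, -3.06 and -3.13 in KO IRI, -2.69, -1.91 and -2.62 in KO sham, -2.33, -2.90 and -3.13 in WT IRI and -0.14, 0.10 and -1.94 in WT sham kidneys. Cd2 had the largest change of the group, -3.94 ± 0.71, limma adjusted p = 0.0104 in WT IRI and -2.99 ± 0.71, limma adjusted p = 0.0310 in KO sham against WT sham kidneys. Cd5 had -3.18 ± 0.55, limma adjusted p = 0.00862 and -2.11 ± 0.55, limma adjusted p = 0.0418, and Cd6 had -2.13 ± 0.47, limma adjusted p = 0.0205 and -1.75 ± 0.47, limma adjusted p = 0.0476. KO sham replicate 2 overlapped WT sham replicate 3 for Cd5 and Cd6. Of the KO sham calls, that of Cd6 held under 8 of the 23 alternative settings and that of Cd5 under 11, and among the genes above Cd3g held under 7 and Lat under 10. Cd69, which appears on the cell surface early after activation, read -6.20, -6.51 and -6.24 in KO IRI, -5.91, -4.57 and -5.86 in KO sham, -5.16, -5.36 and -5.18 in WT IRI and -2.53, -3.15 and -3.92 in WT sham kidneys. Its groups did not overlap in either comparison with WT sham, at -2.03 ± 0.39, limma adjusted p = 0.0126 for WT IRI and -2.25 ± 0.39, limma adjusted p = 0.00869 for KO sham, and it was 1 of 3 members called in KO sham against WT sham whichever single array was left out. Cd7, a T and NK cell surface protein, did not pass in any comparison, with log2 fold changes between -1.09 and 0.14.

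Of the costimulatory receptors, Cd28, which delivers the second signal for T cell activation, read -4.91, -5.41 and -4.91 in KO IRI, -4.57, -3.96 and -4.69 in KO sham, -4.16, -5.35 and -5.11 in WT IRI and -1.56, -1.56 and -4.41 in WT sham kidneys. Icos, a relative of it on activated T cells, read -6.34, -6.16 and -5.45 in KO IRI, -5.24, -4.21 and -5.04 in KO sham, -4.68, -4.92 and -5.34 in WT IRI and -1.50, -1.20 and -4.57 in WT sham kidneys. Both were highest in WT sham replicates 1 and 2, and WT sham replicate 3 was close to the other groups. The change in WT IRI against WT sham was -2.36 ± 0.67, limma adjusted p = 0.0458 for Cd28 and -2.56 ± 0.74, limma adjusted p = 0.0494 for Icos, and neither passed between KO sham and WT sham (-1.90 ± 0.67, limma adjusted p = 0.108 and -2.41 ± 0.74, limma adjusted p = 0.0723). The calls of Cd28 and Icos were lost in 14 and 17 of the 23 alternative settings, among them all fits without WT sham replicate 1 or 2. Cd27, a receptor of the tumour necrosis factor family, was well above background on 4 arrays and did not pass in any comparison. Ctla4 lay between -8.67 and -6.59 on all arrays, none of them well above background.

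The cytokine receptor chains differed in which comparison they passed. Il2rb, the chain shared by the receptors for interleukins 2 and 15, read -4.02, -4.01 and -4.35 in KO IRI, -3.45, -1.87 and -3.37 in KO sham, -2.23, -2.76 and -3.48 in WT IRI and 0.18, 0.19 and -1.64 in WT sham kidneys. It was lower in both comparisons with WT sham, at -2.40 ± 0.56, limma adjusted p = 0.0239 for WT IRI and -2.47 ± 0.56, limma adjusted p = 0.0258 for KO sham. Il7r, the interleukin 7 receptor of naive and memory T cells, read -3.73, -4.11 and -3.88 in KO IRI, -3.90, -2.96 and -3.77 in KO sham, -2.31, -3.42 and -3.37 in WT IRI and -1.68, -1.64 and -2.56 in WT sham kidneys. It was lower in KO sham than in WT sham kidneys (-1.59 ± 0.36, limma adjusted p = 0.0266), and WT IRI replicate 1 overlapped the WT sham arrays (-1.08 ± 0.36, limma adjusted p = 0.0824 for WT IRI against WT sham). Il7r was the only member called in KO sham against WT sham and not in WT IRI against WT sham.

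**Figure D3:**
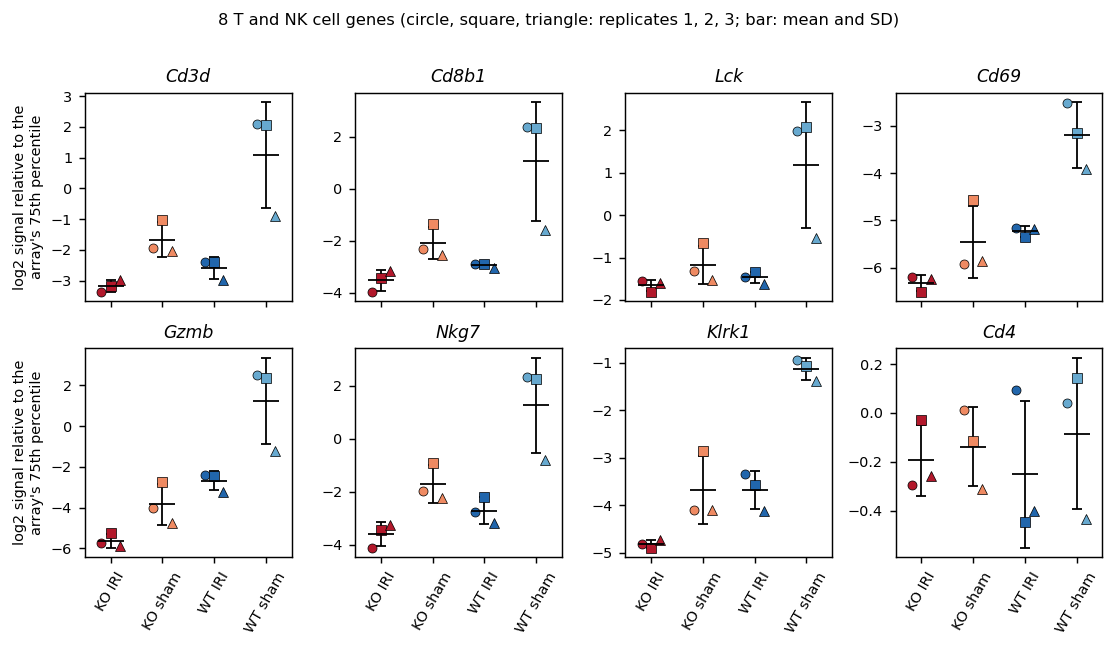
Log2 signal relative to the array's 75th percentile for 8 T and NK cell genes in the 4 groups. Symbols are the 3 replicates (circle 1, square 2, triangle 3), and the bars are mean and SD. WT sham replicates 1 and 2 stand above every other array for Cd3d, Cd8b1, Lck, Gzmb and Nkg7, the 3 WT sham arrays of Klrk1 lie together above the rest, and the groups of Cd4 overlap.

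Among the cytotoxic granule genes 5 of 6 fell in WT IRI and 4 were lower in KO sham, each against WT sham kidneys, and Gzmb had the largest difference of any member in the comparisons made. Gzma, a granzyme of T and NK cells, read -2.98, -2.88 and -3.19 in KO IRI, -1.78, -0.55 and -1.87 in KO sham, -0.66, -0.90 and -1.61 in WT IRI and 3.30, 3.36 and -0.05 in WT sham kidneys. Gzmb, the granzyme that starts caspase-driven death of target cells, read -5.73, -5.26 and -5.91 in KO IRI, -4.03, -2.76 and -4.74 in KO sham, -2.39, -2.45 and -3.23 in WT IRI and 2.53, 2.37 and -1.22 in WT sham kidneys. Gzmk, a granzyme of memory-type cytotoxic cells, read -5.48, -4.93 and -4.78 in KO IRI, -4.29, -3.36 and -4.29 in KO sham, -4.54, -4.61 and -5.27 in WT IRI and 0.64, 0.54 and -2.86 in WT sham kidneys. All 3 WT sham arrays lay above every WT IRI and KO sham array for each granzyme. Gzmb was 33.5-fold lower in KO sham than in WT sham kidneys (-5.07 ± 0.88, limma adjusted p = 0.00876) and 15.1-fold lower in WT IRI than in WT sham kidneys (-3.92 ± 0.88, limma adjusted p = 0.0210). Gzma had -3.60 ± 0.78, limma adjusted p = 0.0218 in KO sham and -3.26 ± 0.78, limma adjusted p = 0.0261 in WT IRI, each against WT sham. Gzmk had -3.42 ± 0.78, limma adjusted p = 0.0259 and -4.25 ± 0.78, limma adjusted p = 0.0107 in that order. In KO IRI against WT IRI kidneys the groups did not overlap for Gzma or Gzmb, and neither passed after adjustment (-1.96 ± 0.78, limma adjusted p = 0.190 and -2.94 ± 0.88, limma adjusted p = 0.110).

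Nkg7, a granule membrane protein of cytotoxic cells, read -4.11, -3.43 and -3.25 in KO IRI, -1.97, -0.92 and -2.24 in KO sham, -2.78, -2.18 and -3.19 in WT IRI and 2.33, 2.24 and -0.81 in WT sham kidneys. Ctsw, cathepsin W, read -4.42, -4.17 and -3.72 in KO IRI, -3.12, -2.41 and -3.24 in KO sham, -4.15, -3.24 and -4.07 in WT IRI and 0.33, 0.41 and -2.49 in WT sham kidneys. Nkg7 followed the granzymes, at -3.97 ± 0.74, limma adjusted p = 0.0115 in WT IRI and -2.96 ± 0.74, limma adjusted p = 0.0365 in KO sham against WT sham. Ctsw passed in WT IRI (-3.24 ± 0.66, limma adjusted p = 0.0156) and missed the threshold in KO sham (-2.34 ± 0.66, limma adjusted p = 0.0554). Prf1, the pore-forming protein perforin, read -3.77, -3.19 and -3.56 in KO IRI, -2.98, -3.27 and -3.28 in KO sham, -2.92, -3.39 and -3.48 in WT IRI and -2.25, -2.28 and -3.14 in WT sham kidneys. Its groups overlapped in every comparison and it did not pass, with -0.71 ± 0.26, limma adjusted p = 0.102 in WT IRI against WT sham and -0.62 ± 0.26, limma adjusted p = 0.174 in KO sham against WT sham. Whether perforin differed from the 5 other granule genes was not tested.

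The stretch before the start of Gzmb is shown because this gene had the largest change of any member. The 250 bases before its start in RefSeq (GRCm38.p6, chr14:56262335-56262584, minus strand) hold 4 matches to motifs of factors known in T and NK cells, in capitals: TGTGGT, bound by RUNX proteins, at 93 and 34 bases before the start, TGANTCA, bound by AP-1, at 58 bases, and TCACAC, bound by T-box proteins such as those of Tbx21 and Eomes, at 15 bases. No 2 of these matches overlap.
Gzmb upstream: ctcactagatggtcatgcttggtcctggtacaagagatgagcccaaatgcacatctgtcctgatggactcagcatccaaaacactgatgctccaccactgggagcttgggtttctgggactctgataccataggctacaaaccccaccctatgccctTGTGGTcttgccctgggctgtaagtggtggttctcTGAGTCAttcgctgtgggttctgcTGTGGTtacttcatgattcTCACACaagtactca
RefSeq promoters were found for 27 of the 38 members, 33 promoters in all. Searched on both strands, TGTGGT occurred in 12 of them (36.4%), against 14% of all 32851 promoters, each read over the same 250 bases before the start. TCACAC occurred in 9 (27.3%), against 12.3%, AGGAAG, bound by ETS proteins, in 17 (51.5%), against 29.5%, and TGANTCA in 1 (3.03%), against 6.75%. TATAAA occurred in 4 (12.1%), against 12.4%. Some genes have more than 1 promoter, and those of Ncr1 overlap almost wholly. Counted by gene, TGTGGT occurred in 11 of 27, TCACAC in 7, AGGAAG in 15, TGANTCA in 1 and TATAAA in 4. These are counts of letters in a fixed window and carry no test.

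The secreted cytokines were near background in most groups other than WT sham. Ifng, interferon gamma, read -6.85, -8.36 and -7.72 in KO IRI, -5.77, -3.93 and -6.44 in KO sham, -6.16, -6.03 and -6.66 in WT IRI and -1.42, -1.39 and -4.97 in WT sham kidneys. It was well above background on 0 KO IRI arrays, 1 KO sham array, 1 WT IRI array and 3 WT sham arrays, and its change in WT IRI against WT sham was -3.69 ± 0.93, limma adjusted p = 0.0312. Xcl1, a chemokine of activated CD8 and NK cells, read -6.96, -6.88 and -7.82 in KO IRI, -5.44, -3.95 and -5.74 in KO sham, -8.16, -5.80 and -7.83 in WT IRI and -3.50, -3.33 and -4.67 in WT sham kidneys. It was 10.8-fold lower in WT IRI than in WT sham kidneys (-3.43 ± 0.67, limma adjusted p = 0.0131), with 1 of 3 WT IRI arrays well above background. In KO IRI kidneys Xcl1 was well above background on 0 arrays and all of them lay below the KO sham arrays, a level at least 2.22-fold lower that did not pass (-2.18 ± 0.67, limma adjusted p = 0.0873).

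Of the NK receptor genes, Klrk1 had the smallest adjusted p of any member in all 5 contrasts. Klrk1, which encodes the activating receptor NKG2D, read -4.81, -4.90 and -4.74 in KO IRI, -4.10, -2.86 and -4.09 in KO sham, -3.34, -3.58 and -4.12 in WT IRI and -0.93, -1.06 and -1.39 in WT sham kidneys. Its 3 WT sham arrays lay within 0.45 of each other and above all 9 other arrays. It was lower in WT IRI (-2.56 ± 0.32, limma adjusted p = 0.00240) and in KO sham (-2.56 ± 0.32, limma adjusted p = 0.00317) than in WT sham kidneys, and it was the only member called in WT IRI against WT sham under all 23 alternative settings tried. Klrd1, the partner chain CD94 of the NKG2 receptors, read -4.82, -4.79 and -4.29 in KO IRI, -3.46, -2.84 and -3.77 in KO sham, -4.03, -3.06 and -4.05 in WT IRI and -0.36, -0.61 and -2.72 in WT sham kidneys. It was lower in WT IRI (-2.49 ± 0.56, limma adjusted p = 0.0208) and in KO sham (-2.13 ± 0.56, limma adjusted p = 0.0426) than in WT sham kidneys. The KO sham call of Klrd1 held under 11 of the 23 alternative settings. The single probe of Klrd1, on chromosome 6 (mm9, chr6:129548391-129548450, plus strand), is shown as the whole basis of its results.
Klrd1 probe: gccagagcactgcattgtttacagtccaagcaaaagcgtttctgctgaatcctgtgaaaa
Klrb1c, the NK1.1 antigen by which NK cells of C57 mice are recognised, did not pass. Its WT IRI arrays, at -5.28, -5.10 and -5.68, and its KO sham arrays, at -6.18, -4.54 and -5.69, all lay below the WT sham arrays, at -4.43, -4.33 and -4.35 (-0.98 ± 0.44, limma adjusted p = 0.167 for WT IRI and -1.10 ± 0.44, limma adjusted p = 0.152 for KO sham, each against WT sham). The second kept probe of Klrb1c, well above background on 6 arrays, gave larger differences. They were -1.75 for WT IRI and -1.87 for KO sham, each against WT sham. Ncr1, the receptor NKp46, was well above background on WT sham replicate 2 alone, where its level was -6.00.

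Of the transcription factors, Tbx21, which encodes T-bet, the factor that drives interferon gamma and cytotoxic genes, read -5.33, -6.40 and -6.06 in KO IRI, -5.51, -3.30 and -5.19 in KO sham, -6.90, -5.01 and -5.57 in WT IRI and -0.74, -0.63 and -3.69 in WT sham kidneys. It was 17.7-fold lower in WT IRI than in WT sham kidneys (-4.14 ± 0.87, limma adjusted p = 0.0167), and KO sham against WT sham gave -2.98 ± 0.87, limma adjusted p = 0.0607, which did not pass. Eomes, a related factor of NK and memory CD8 T cells, had no call and gave -0.50 ± 0.42, limma adjusted p = 0.472 in WT IRI and -1.0 ± 0.42, limma adjusted p = 0.180 in KO sham against WT sham. Tcf7, a factor of naive T cells and their precursors, was the only member with a positive value in WT IRI against WT sham (0.23 ± 0.36, limma adjusted p = 0.722). Foxp3, the factor of regulatory T cells, was well above background on all 3 KO IRI arrays, 1 KO sham array and 0 of the 6 WT arrays. It read -6.17, -5.35 and -6.09 in KO IRI kidneys, against -6.64, -7.28 and -6.16 in WT IRI kidneys, which gives a level at least 1.24-fold higher in KO IRI kidneys that did not pass (0.83 ± 0.42, limma adjusted p = 0.275).

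The helper T cell coreceptor Cd4 was not called in any comparison. Its brightest probe read -0.30, -0.03 and -0.26 in KO IRI, 0.01, -0.12 and -0.31 in KO sham, 0.09, -0.45 and -0.40 in WT IRI and 0.04, 0.14 and -0.44 in WT sham kidneys. The groups overlapped in all 4 comparisons, with log2 fold changes between -0.17 and 0.06. The other kept probe of Cd4 was dim, well above background on 2 KO IRI arrays, 3 KO sham arrays and 0 WT arrays, and another probe was so on 0 arrays. For Cd4 these probes therefore give no second measurement in wild-type kidneys.

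For Cd247 and Cd96 the choice of probe changed the picture. Cd247, the zeta chain of the T cell receptor complex, had no call through its brightest probe, which read 0.76, 0.36 and 0.96 in KO IRI, 0.67, 0.85 and 0.72 in KO sham, 0.16, -0.31 and 0.54 in WT IRI and 0.48, 0.88 and 0.55 in WT sham kidneys. A probe of 60 bases that spans 1019 bases of the genome, and so joins sequences that lie apart (mm9, chr1:167786567-167787585, plus strand) read -8.57, -8.38 and -8.17 in KO IRI, -7.84, -8.20 and -8.30 in KO sham, -8.02, -7.44 and -8.41 in WT IRI and -5.35, -5.38 and -8.26 in WT sham kidneys. It was well above background only on WT sham replicates 1 and 2, the arrays on which most members were high, and it was left out of the test for being above background on under 3 arrays. The brightest probe lies at chr1:167791567-167791626. The other kept probe of Cd247 was well above background on 10 arrays. It read -5.16, -5.72 and -5.88 in KO IRI and -5.44, -5.10 and -6.30 in KO sham kidneys. In WT IRI it read -4.37, -7.12 and -5.16, and in WT sham -4.37, -3.67 and -4.48. On that probe WT sham replicate 3 was close to replicate 1, and WT IRI replicate 1 overlapped the WT sham arrays.
Cd247 probe over the junction: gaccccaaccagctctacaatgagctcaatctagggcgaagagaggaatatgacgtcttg
Cd96, a receptor for nectin-family proteins on T and NK cells, was measured by 2 kept probes. Its brightest probe read -5.59, -6.67 and -6.42 in KO IRI, -5.43, -5.49 and -5.67 in KO sham, -6.09, -7.09 and -6.81 in WT IRI and -5.30, -5.12 and -5.72 in WT sham kidneys. It was not well above background on any WT IRI array, so that the call in WT IRI against WT sham (-1.29 ± 0.31, limma adjusted p = 0.0278) is a level at least 1.75-fold lower. The other kept probe (mm9, chr16:46038560-46038619, minus strand) read -8.54, -8.40 and -7.62 in KO IRI, -7.56, -5.25 and -6.96 in KO sham, -8.04, -6.82 and -8.41 in WT IRI and -1.45, -1.70 and -4.75 in WT sham kidneys. It was well above background on 1 KO sham array, all 3 WT sham arrays and no other, so that its level in WT IRI was at least 11.69-fold lower than in WT sham kidneys.
Cd96 other kept probe: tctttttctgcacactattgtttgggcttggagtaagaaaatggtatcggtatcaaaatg
Across the members, 15 further kept probes could be set beside the probe used. All 15 had the same sign as the probe used in WT IRI against WT sham, and 13 of 15 in KO sham against WT sham, with Cd247 and Cd4 as the exceptions. The second probe of Cd3e gave a smaller difference than the first, -0.68 for WT IRI and -0.14 for KO sham, each against WT sham.

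**Figure D4:**
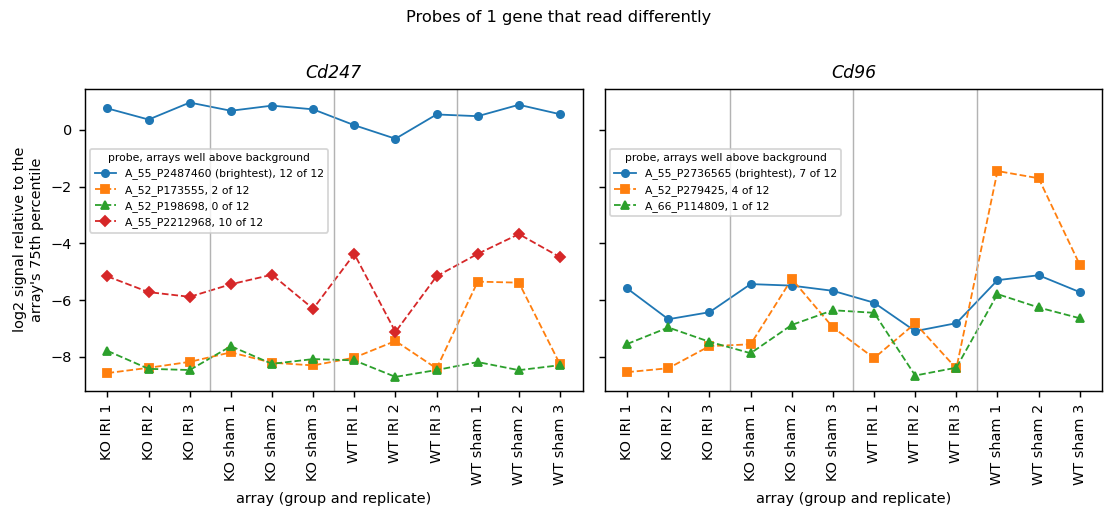
Log2 signal relative to the array's 75th percentile for the 4 probes of Cd247 and the 3 probes of Cd96 on the 12 arrays. The solid line is the brightest probe, which was used in the tests, and each legend entry gives the number of arrays on which the probe was well above background. The orange probe of Cd247 is high in WT sham replicates 1 and 2 alone and that of Cd96 in all 3 WT sham kidneys. The brightest probe of Cd247 shows no such contrast, and the brightest probe of Cd96 shows a smaller one.

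Of 48 further T and NK cell genes listed beside the members, 41 were tested. In WT IRI against WT sham 21 fell and 0 rose, where 5.90% of all genes fell. The median log2 fold change of the 41 was -1.12. In KO sham against WT sham 20 were lower and 1 higher, with a median of -1.54. Of all genes 3.73% were lower there, and 1329 of 25947 were higher. In KO IRI against KO sham 1 of the 41 fell and 0 rose, where 1052 of all 25947 genes fell. KO IRI against WT IRI gave 0 calls by limma, and 11 of the 41 had an unadjusted p under 0.05, beside the 5625 of 25947 genes given above. The largest falls in WT IRI without overlap of the groups were those of Cd226, an activating receptor (-3.53 ± 0.52, limma adjusted p = 0.00488), Klrg1, an inhibitory receptor of effector cells (-3.48 ± 0.97, limma adjusted p = 0.0446), Sh2d1a, an adaptor of the SLAM receptors (-3.45 ± 0.84, limma adjusted p = 0.0279), and Cxcr6, a homing receptor of tissue T cells (-3.39 ± 0.66, limma adjusted p = 0.0132). In KO sham against WT sham they were Havcr2, the inhibitory receptor TIM-3 (-3.05 ± 0.29, limma adjusted p = 0.00182), Fasl, the Fas ligand (-2.74 ± 0.65, limma adjusted p = 0.0295), Lcp2, the adaptor SLP-76 (-2.53 ± 0.34, limma adjusted p = 0.00396), and Grap2, which links SLP-76 to LAT (-2.53 ± 0.43, limma adjusted p = 0.00855). Havcr2 was at -5.10, -3.93 and -5.23 in KO sham kidneys, and its WT sham arrays were level, at -1.68, -1.63 and -1.80. The gene higher in KO sham was Il12rb2, a chain of the interleukin 12 receptor (0.68 ± 0.17, limma adjusted p = 0.0341).

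Ccr7, the receptor by which naive T cells and dendritic cells enter lymph nodes, was the only gene of either list called in KO IRI against KO sham. It read -3.66, -3.88 and -4.12 in KO IRI, -2.84, -2.29 and -2.84 in KO sham, -2.93, -2.97 and -3.19 in WT IRI and -1.75, -1.98 and -2.38 in WT sham kidneys. Every IRI array lay below every sham array of the same genotype, with -1.23 ± 0.21, limma adjusted p = 0.0104 in the knockout and -0.99 ± 0.21, limma adjusted p = 0.0165 in the wild type.

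Markers of other cells moved with the members in part, and their part in the results was not tested. Beside the counts that follow, 5.90% of all genes tested fell in WT IRI and 3.73% were lower in KO sham, each against WT sham. The summed signal of 12 pan-leukocyte genes lay between 14.3 and 15.8 in KO IRI, 16.0 and 21.0 in KO sham, 19.1 and 23.4 in WT IRI and 25.4 and 60.8 in WT sham kidneys, in units of the array's 75th percentile, and the summed signal of the 36 members lay between 4.43 and 5.13, 5.67 and 9.18, 4.87 and 6.03, and 9.48 and 54.6 in the same groups. Of the pan-leukocyte genes 4 fell in WT IRI and 7 were lower in KO sham, each against WT sham. In KO sham against WT sham 11 of these 12 genes were negative, and Ptprc went the other way without being called. Ptprc read 0.87, 1.14 and 0.82 in KO sham and 0.41, 0.76 and 0.40 in WT sham kidneys. The 14 cell cycle genes were also lowest in replicate 3 among the WT sham arrays, with sums of 29.2, 28.7 and 14.7 in replicates 1, 2 and 3, and 7 fell in WT IRI and 10 were lower in KO sham kidneys. The 15 interferon-induced genes had sums of 372, 384 and 1050 in WT sham replicates 1, 2 and 3. Their sum was thus highest in replicate 3, the lowest for the members. The sum does not stand for each gene of that list. Cxcl9 read 1.17, 1.27 and -0.34 on these arrays and was lowest in replicate 3. The interferon-induced genes fell in 10 of 15 cases in WT IRI and were lower in 14 of 15 in KO sham kidneys, each against WT sham.

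B cell and lymph node genes were called in both directions in WT IRI against WT sham kidneys. Of all 25947 genes 1532 fell and 1577 rose in that comparison. In KO sham against WT sham the calls of B cell and lymph node genes were all higher. There 968 of all 25947 genes were called lower and 1329 higher. Of 8 B and plasma cell genes tested 1 fell and 1 rose in WT IRI, and 0 were lower and 1 higher in KO sham, each against WT sham. Their summed signal lay between 1.92 and 2.91 in KO sham kidneys and was 2.53, 2.12 and 1.33 in WT sham replicates 1, 2 and 3. Ms4a1, which encodes the B cell surface protein CD20, was well above background on 0 KO IRI, 3 KO sham, 1 WT IRI and 3 WT sham arrays. The 9 genes of lymph node stroma and follicles had sums between 2.27 and 3.44 in KO IRI, 3.20 and 4.28 in KO sham, 1.95 and 3.07 in WT IRI and 4.49 and 4.96 in WT sham kidneys. These sums were higher on the WT sham arrays than on the 9 others, with no gap between replicate 3 and replicates 1 and 2. They do not stand for each gene of the list. Cxcl13 read -5.00, -5.25 and -4.88 in WT sham replicates 1, 2 and 3, below the 9 others. Glycam1 was also below them, at -3.03, -2.98 and -3.03. Of the 9 lymph node genes 2 fell and 2 rose in WT IRI, while 0 were lower and 4 higher in KO sham, each against WT sham. Among phagocytes, 7 of 11 neutrophil genes rose and 1 fell in WT IRI against WT sham, with sums between 112 and 123 in WT IRI and between 60.6 and 89.99 in WT sham kidneys. Of 15 macrophage and monocyte genes 5 fell and 2 rose in that comparison, and 6 were lower and 0 higher in KO sham against WT sham. Of 10 dendritic cell and class II genes 5 fell and 0 rose in WT IRI, and 8 were lower and 0 higher in KO sham with a median log2 fold change of -2.66, each against WT sham. Their sums lay between 54.3 and 56.7 in KO IRI, 77.6 and 138 in KO sham, 84.4 and 495 in WT IRI and 558 and 602 in WT sham kidneys, so that the 3 WT sham arrays were close together and above the 9 others.

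Erythrocyte, adipocyte and tubule genes moved in the same comparisons. Of all 25947 genes 1577 rose and 1532 fell in WT IRI, and 1329 were higher in KO sham, each against WT sham. Of 6 erythrocyte genes 4 rose in WT IRI, with sums between 84.7 and 152, against 19.5 and 24.4 in WT sham kidneys. Of 7 adipocyte genes 3 rose in WT IRI, with sums between 31.6 and 60.4, against 12.2 and 14.1 in WT sham kidneys. Of 12 proximal tubule genes 5 fell in WT IRI and 2 were higher in KO sham, each against WT sham, with sums between 901 and 979 in WT IRI, 1393 and 1595 in KO sham and 1140 and 1293 in WT sham kidneys.

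**Figure D5:**
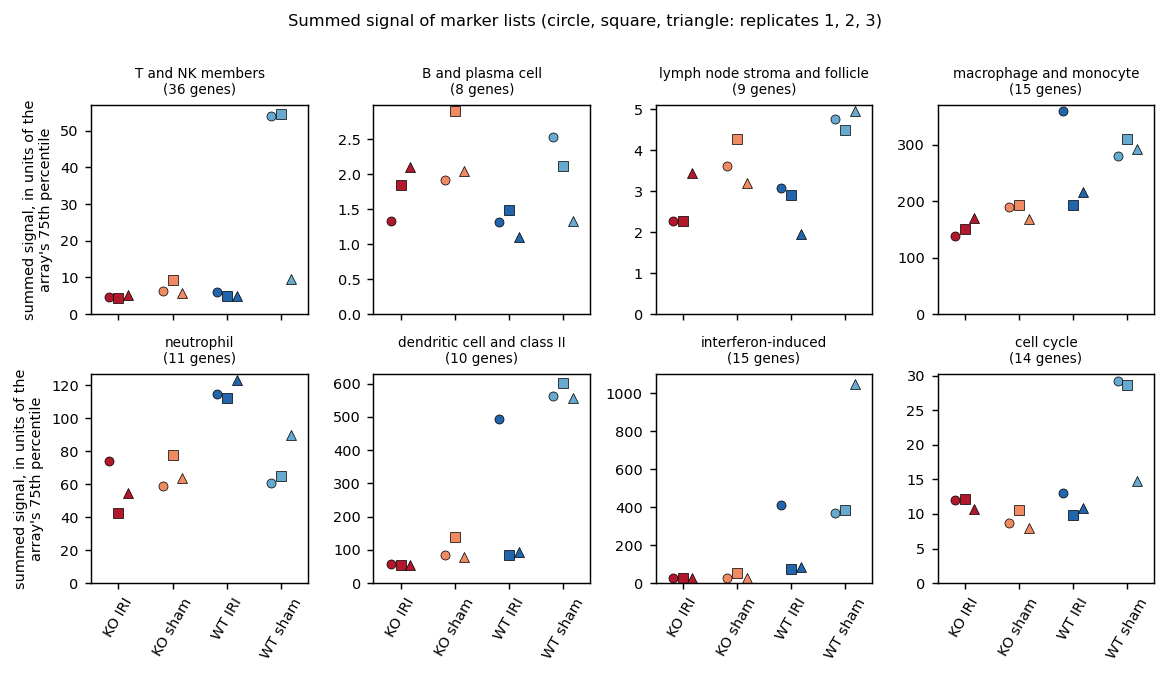
Summed signal of the 36 T and NK members and of 7 marker lists in each kidney, in units of the array's 75th percentile, on linear axes from 0. Circle, square and triangle are replicates 1, 2 and 3. The sums of the members and of the cell cycle genes are high in WT sham replicates 1 and 2 (54.0 and 54.6 for the members, against 9.48 in replicate 3). The sum of the interferon-induced genes is highest in WT sham replicate 3, and that of the lymph node genes is level over the WT sham arrays.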

How the data were processed

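Kidney RNA of 12 male mice was hybridised to one-colour Agilent arrays. Per the file headers, the deposited scanner output was made by Feature Extraction (Agilent, 10.7.1.1), and its processed signal is a spot intensity that already had the background taken off within the array. The log2 values that the authors deposited for the same arrays served as an alternative. The submitters' processing notes name limma but give no version.

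Control and outlier spots were left out, spots of a probe were averaged, and log2 processed signal was reduced by the array's 75th percentile. Probes well above background on at least 3 of 12 arrays were kept (39449), and each gene took its kept probe with the highest mean. Ctla4 and Ncr1 had none. Coordinates are those of the files (mm9). limma 3.58.1 in R 4.3.3 fitted 4 group means over 12 arrays (8 residual degrees of freedom), two-sided, with Benjamini-Hochberg adjustment over 25947 genes and a threshold of 0.05. The fit was tested on simulated data.

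Values on every array are given for members past the threshold in any comparison, and of the further T and NK cell genes the 4 largest called differences without overlap per comparison are named. The members and lists were chosen with earlier results of these data known. Per the series text the 3 samples of a group are independent. Replicate numbers were not used to pair the samples. Correlations of same-numbered deviations lay between -0.267 and 0.151, and those of differently numbered ones between -0.262 and 0.271. These values show no pairing but cannot exclude it, since deviations from means of 3 arrays depend on each other. There were 23 alternative settings, 1 of them (closest arrays averaged) chosen after seeing the data. With 3 arrays per group, precision is limited by their number.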

Additional observations from a re-analysis of the deposited data

How the results depend on the processing

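The direction of every member called in WT IRI or KO sham against WT sham was the same under all 23 alternatives. Part of these alternatives could not change a direction, because they leave the fold changes as planned. Such were the fit to only the groups compared, the slide and replicate blocks, and the fits without an array of another group. The number of calls did vary. For WT IRI against WT sham it was 26 as planned, 1 in a fit to only the groups compared, 1 with the closest arrays averaged, and 7 to 30 when 1 array was left out. For KO sham against WT sham it was 17 as planned, 11 with no filter on dim probes, 32 with array weights, 4 in a fit to only the groups compared, 0 with the closest arrays averaged, and 3 to 27 with 1 array left out. For KO IRI against KO sham it was 0 as planned, 3 with array weights, 5 in a fit to only the groups compared, and 0 to 10 with 1 array left out. For KO IRI against WT IRI it was 0, 3 with array weights, 1 in a fit to only the groups compared, and 0 to 2 with 1 array left out, with 2 without WT sham replicate 3 and 1 without KO sham replicate 2. The interaction had 0, 25 higher with array weights, and 0 to 9 with 1 array left out. Array weights called 35.2% of all genes in KO sham against WT sham and 10.5% in the interaction. They called 20.4% in KO IRI against KO sham and 19.3% in KO IRI against WT IRI. In fits to only the groups compared 1.61%, 15.6%, 9.41% and 0.135% of all genes passed, in the order given above. With 1 array left out, all-gene counts were 846 to 4675, 649 to 4405, 454 to 3252 and 146 to 971. They were 4 to 148 in the interaction. With the closest arrays averaged 1.06% of all genes passed in WT IRI against WT sham and 0.0193% in KO sham against WT sham. With no filter on dim probes 4.34% passed in KO sham against WT sham. The weights ranged from 0.10 to 5.35, the lowest on WT IRI replicate 1. The causes were not tested.

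With the replicate number as a block, which the labels do not show to pair the samples, the counts were 25, 16, 1, 0 and 0 for WT IRI against WT sham, KO sham against WT sham, KO IRI against KO sham, KO IRI against WT IRI and the interaction. Of all genes 9.57%, 6.87%, 4.44%, 1.08% and 0.0193% passed, in the same order. The slide as a random block left the counts as planned, since the slide is already given by the group terms. Quantile scaling moved the median of all genes in KO sham against WT sham to 0.06, against 0.12 as planned.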
